A study of Homo sapiens with 2 samples.

Results

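Immune checkpoint ligands and related immunosuppressive genes of tumour cells were followed in 2 RNA-seq libraries of Cal-27, a long-established line derived from an oral squamous cell carcinoma of the tongue. The genes are the rows of the deposited tables named CD274, PDCD1LG2, CD276, VTCN1, NT5E, CD47, TNFRSF14, PVR, LGALS9 and IDO1, 10 of the 20263 genes listed. They were taken by name, as genes with such a role, and no threshold on their values was used. Earlier results of these data were known when they were chosen. One library came from cells stably transduced with a scrambled shRNA (sh-scramble), the other from cells stably transduced with an shRNA against the nuclear kinase HIPK2 (GV-248-HIPK2-sh). Both cultures grew in DMEM with serum and were collected without further treatment. The labels do not say whether each culture was a clone or a pool. The comparison asks how these genes differ in cells in which HIPK2 is meant to be attenuated.

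Checkpoint ligands are proteins that tumour cells use to hold back T cells, natural killer cells and macrophages. PD-L1 (CD274) and PD-L2 (PDCD1LG2) bind PD-1 on T cells, and B7-H3 (CD276) and B7-H4 (VTCN1) are relatives of the same B7 family whose receptors are less well defined. CD47 binds SIRPA on macrophages as a signal against phagocytosis, PVR binds TIGIT, CD96 and CD226, TNFRSF14 (HVEM) binds BTLA and CD160, and LGALS9 encodes the lectin galectin-9. NT5E (CD73) makes adenosine outside the cell, and IDO1 opens the breakdown of tryptophan to kynurenine. In carcinoma cells CD274 and IDO1 are known as targets of interferon-gamma signalling.

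A single library stood for each group, of 28064923 counts (control) and 26450251 counts. Spread between cultures is therefore unknown, and the differences given are between 2 libraries, with no test and no p-value. Levels are in CPM (the count scaled to the library total) after TMM scaling, and bracketed ranges are 95% exact intervals for counting error alone. HIPK2 itself was counted 110 times in the control and 218 times in the library labelled HIPK2 shRNA, a CPM ratio of 2.01 (1.59 to 2.55), while the authors' TPM went from 1.63 to 0.873. Counts alone would contradict the label and TPM would not, and so the sample is named by its label throughout. Of 15 squamous carcinoma markers, 15 were expressed in at least 1 library, 10 of them lower and 5 higher in the library labelled HIPK2 shRNA, where their summed level was 4766 CPM against 5364 in the control. Past 2-fold lower were the basal keratin KRT14 (318 and 44 counts, 7.13-fold) and the epithelial cadherin CDH1 (5049 and 2361 counts, 2.11-fold), whose part in the results was not tested. The basal keratin KRT5 had 75882 and 69106 counts. Of 20 leukocyte markers, 5 were expressed in at least 1 library. These were CD68, CSF1R (231 and 238 counts), CD14 (136 and 88), ITGAM (43 and 55) and ITGAX (6 and 29). Another 12 were at 0 counts in both libraries, PTPRC and CD3E among them. The list summed to 39.1 and 36.4 CPM, most of it CD68. Of 10 fibroblast markers 4 were expressed in at least 1 library. These were COL1A1 (263 and 343 counts), COL1A2 (187 and 164), ACTA2 (101 and 135) and PDGFRB (44 and 73). Another 3 were at 0 in both libraries, and the list summed to 22.3 and 26.98 CPM. Of 8 endothelial markers 2 were expressed, CDH5 and VWF (25 and 31 counts). Another 4 were at 0 in both libraries, PECAM1 and KDR among them. The endothelial sum of 56.3 and 28.6 CPM was nearly all CDH5. In bulk RNA, fewer cells of a type and less RNA per cell cannot be told apart.

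The checkpoint genes did not move as a block. CD276 was far higher in the library labelled HIPK2 shRNA, CD274 and NT5E were lower, and CD47 was lower by an amount that depended on the scale. PVR was somewhat higher, TNFRSF14 and IDO1 were lower, LGALS9 was higher alone but not when summed with its near-identical copies, and PDCD1LG2 and VTCN1 were barely detected. Expressed means reaching 1 CPM in either library or in both, and past 2-fold means a log2 ratio of (CPM + 1) that reaches 1 or -1, which grades size without testing it. By these definitions 8 of the 10 genes were expressed, of which 1 was past 2-fold higher and 2 past 2-fold lower. Over all 11813 expressed genes 6.13% were past 2-fold, 3.26% higher and 2.87% lower. With 8 genes, a single gene is more than this share in either direction. At 1.5-fold the counts were 1 higher and 4 lower, beside 10.6% and 9.96% of all expressed genes (20.6% together). The median log2 ratio of the 8 genes was -0.64, beside 0.00 over all expressed genes. The set held both signs, with 3 genes higher and 5 lower. IDO1, counted in the 5 and in the 4 at 1.5-fold, reached 1 CPM in the control alone (1.75 against 0.443 CPM). A gene that passes the filter in this way can only be lower, so it adds no support to these counts or the median.

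**Figure D1:**
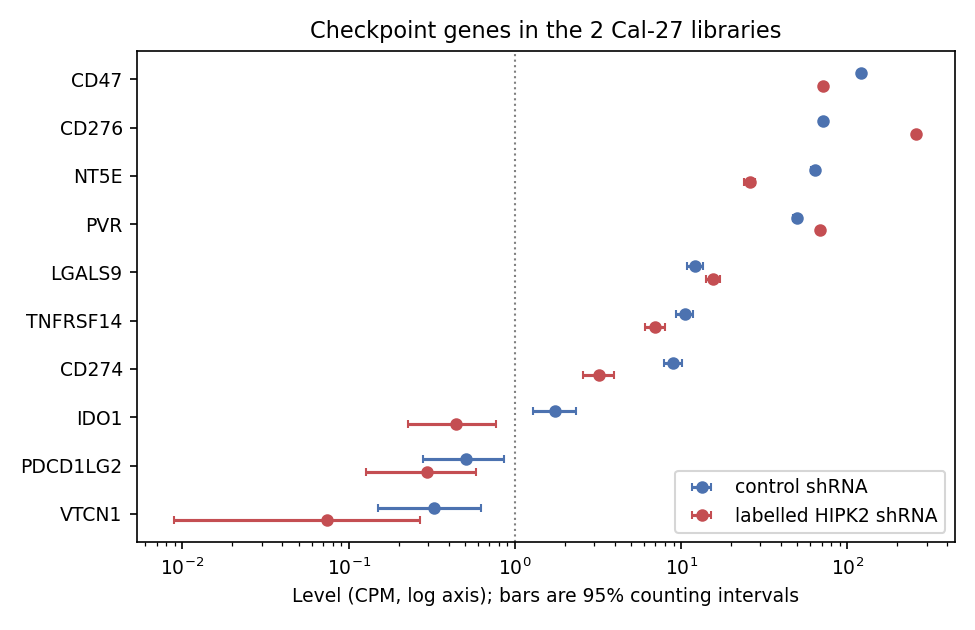
Level of the 10 checkpoint genes in CPM (log axis) in the control library (blue) and the library labelled HIPK2 shRNA (red), with 95% exact Poisson intervals and a dotted line at 1 CPM. CD276 is the gene with the widest step upward, from 71.3 to 258.4 CPM, while CD274, NT5E, CD47, TNFRSF14 and IDO1 sit lower in the library labelled HIPK2 shRNA.

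Among the B7 family ligands, CD276 and CD274 differed in opposite directions. CD276 (ENSG00000103855, chromosome 15, 73683966 to 73714518, plus strand, GRCh38) was counted 1955 times in the control and 6992 times in the library labelled HIPK2 shRNA. In CPM this was 71.3 (68.1 to 74.5) against 258.4 (252.4 to 264.5), 3.63 times higher (3.45 to 3.81). The intervals of the libraries do not overlap, and 77 of the 11813 expressed genes had a higher log2 ratio. On the per-length scale of the authors' TPM, CD276 went from 41.1 to 165.4, a ratio of 4.03.

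CD274 (ENSG00000120217, chromosome 9, 5450503 to 5470566, plus strand) was counted 245 times in the control and 87 times in the library labelled HIPK2 shRNA. In CPM this was 8.93 (7.85 to 10.1) against 3.22 (2.58 to 3.97), 2.78-fold lower (2.17 to 3.59). The intervals of the libraries do not overlap, and 199 expressed genes had a lower log2 ratio. In TPM CD274 went from 3.46 to 1.35, and the log2 ratio of (TPM + 1) was -0.93, which is short of 2-fold on that scale. It was also short of 2-fold, at -0.76, with a pseudocount of 5 CPM.

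The second PD-1 ligand, PDCD1LG2 (ENSG00000197646, chromosome 9, 5510570 to 5571254, plus strand), had 14 and 8 counts. Its levels of 0.510 CPM (0.279 to 0.856) and 0.296 CPM (0.128 to 0.583) overlapped, and a difference was not detectable at this depth. VTCN1 (ENSG00000134258, chromosome 1, 117143587 to 117210960, minus strand) had 9 and 2 counts, with a ratio of 0.225 whose interval (0.0237 to 1.09) includes 1. Both genes were below the filter of 1 CPM in both libraries. The summed TPM of the 4 B7 genes was 45.0 in the control and 167.0 in the library labelled HIPK2 shRNA, and CD276 made up 91.3% and 99.1% of it. Per length, CD276 was 11.9 times as high as CD274 in the control and 122.6 times as high in the second library.

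The bases before the start of transcription are shown for CD276, for CD274 and for CD47, which represent a higher gene, a lower gene and a gene whose count and TPM ratios differ. The sequences are from RefSeq (GRCh38.p14), whose table held a window of 250 bases before to 50 after the start for 8 of the 10 genes, PDCD1LG2 and IDO1 not among them. Each is printed 5′ to 3′ on the strand of the gene, from 250 bases before the start up to the first annotated exon and for at most 200 bases. The RefSeq start of CD276 lies downstream of the gene start given above. Its printed bases (from 73684133) therefore fall inside the gene span (from 73683966). Capitals mark matches to the motifs searched.
CD274, chr9:5450292-5450491, plus strand: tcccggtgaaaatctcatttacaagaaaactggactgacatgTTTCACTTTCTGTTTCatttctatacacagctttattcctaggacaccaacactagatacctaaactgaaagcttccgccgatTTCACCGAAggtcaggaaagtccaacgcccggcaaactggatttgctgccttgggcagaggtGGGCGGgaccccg
CD276, chr15:73684133-73684212, plus strand: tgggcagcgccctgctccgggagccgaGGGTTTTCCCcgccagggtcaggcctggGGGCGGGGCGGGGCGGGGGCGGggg
CD47, chr3:108091082-108091281, minus strand: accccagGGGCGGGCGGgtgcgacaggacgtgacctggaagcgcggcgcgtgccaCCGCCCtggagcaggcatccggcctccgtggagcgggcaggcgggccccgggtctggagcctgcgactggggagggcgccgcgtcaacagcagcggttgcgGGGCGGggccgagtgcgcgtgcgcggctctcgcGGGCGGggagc
Searched on both strands of the whole window were a GAS element (TTCNNNGAA), an ISRE-type element and an NF-kB site (both by consensus, named only), an AP-1 site (TGANTCA), an E-box (CACGTG), an SP1 site (GGGCGG), a TEAD site (GGAATG) and a CRE (TGACGTCA). The CD274 window held 2 overlapping ISRE matches, at positions -208 and -202 from the start, and 1 GAS match at -125. Of 34943 windows of this length in the table, 3.57% held an ISRE match and 7.66% a GAS match. Among the other checkpoint genes with a window, LGALS9 had 1 ISRE match and none had a GAS match. The first of the CD276 windows held 1 NF-kB match, at -223, which 5.67% of windows held, and 7 SP1 matches, some of them overlapping. SP1 matches were in 44.9% of windows, with 6 in the CD47 window and 2 in the NT5E window. The NT5E window is not printed, because it begins within an annotated exon. The CD276 window was 80.3% G and C and the CD47 window 79.0%, beside 57.3% for CD274 and a median of 58.7% over the table. A match of letters is a description and not evidence of binding.

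NT5E and IDO1, the metabolic members, were both lower in the library labelled HIPK2 shRNA. NT5E (ENSG00000135318, chromosome 6, 85449584 to 85495791, plus strand), the last enzyme on the way from ATP to adenosine at the cell surface, had 1741 and 698 counts. That is 63.5 CPM (60.5 to 66.5) for the control against 25.8 CPM (23.9 to 27.8), 2.46-fold lower (2.25 to 2.69). The intervals do not overlap, and TPM gave nearly the same, 38.3 and 16.0, 2.40-fold lower. NT5E was past 2-fold under each scaling, pseudocount and filter tried, and 186 expressed genes had a lower log2 ratio.

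IDO1 (ENSG00000131203, chromosome 8, 39902275 to 39928444, plus strand) was counted 48 times in the control and 12 times in the library labelled HIPK2 shRNA. In CPM this was 1.75 (1.29 to 2.32) against 0.443 (0.229 to 0.775), 3.95-fold lower (2.06 to 8.16), and the intervals do not overlap. At so low a level the log2 ratio of (CPM + 1) was -0.93, short of 2-fold, and it was -1.77 with a pseudocount of 0.1 CPM. An antisense gene shares 3.68% of the exon bases of IDO1, and the use of strand in counting is not stated in the labels.

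CD47 was lower in both units, by 1.69-fold (1.60 to 1.79) in counts and by 3.98-fold in TPM. The gene (ENSG00000196776, chromosome 3, 108043299 to 108091025, minus strand) was counted 3301 and 1925 times, 120.3 CPM (116.3 to 124.5) and 71.1 CPM (68.0 to 74.4). Its TPM went from 100.5 to 25.2. On the count scale CD47 was therefore short of 2-fold (log2 ratio -0.75) and on the TPM scale past it (-1.95). In TPM, as in CPM, 2 genes of the set were past 2-fold lower, but they were CD47 and NT5E in place of CD274 and NT5E. Of the 10885 genes that reached 1 TPM, 5.55% were past 2-fold on that scale, 3.01% higher and 2.54% lower.

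**Figure D2:**
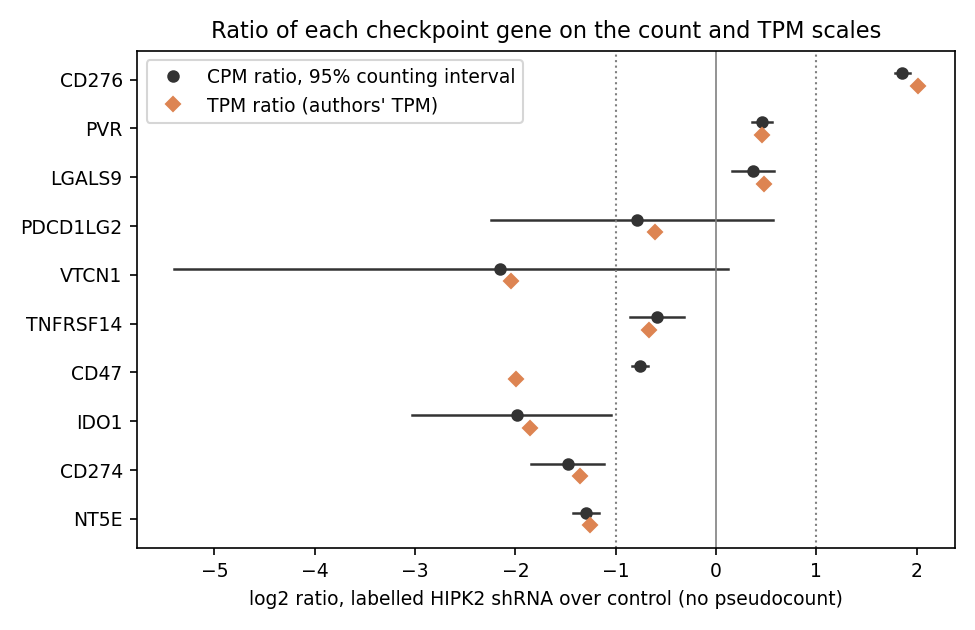
Log2 ratio of each checkpoint gene, library labelled HIPK2 shRNA over control, from CPM with 95% exact counting intervals (black) and from the authors' TPM (orange), both without a pseudocount; dotted lines mark 2-fold. The scales nearly coincide for most genes, and CD47 is the gene where they part, at 1.69-fold lower in counts and 3.98-fold lower in TPM.

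The scales differ by the transcript length used to compute TPM. Count divided by FPKM gives the length by which the authors' values were scaled. Over 390 genes with 1 annotated transcript and at least 100 counts in each library, this quotient per kilobase had an interquartile range of 0.212% (control) and 0.222% of its median. Calibrated on these genes, the length implied for CD47 was 1671 nucleotides in the control and 4220 in the library labelled HIPK2 shRNA, a ratio of 2.525. GENCODE 29 lists 6 CD47 transcripts, among them coding transcripts of 5225 and 1285 nucleotides, and both implied lengths lie between these. Of 9103 genes with at least 100 counts in each library, 7 had a length ratio as high as that of CD47, CD47 itself and HIPK2 (3442 to 13819 nucleotides) among them. The 5th and 95th percentiles of the ratio were 0.823 and 1.22. The tables used here give 1 value per gene, so the transcripts behind the shift were not analysed here. Among the other 9 checkpoint genes TNFRSF14 had the ratio farthest from 1, at 1.13 (1446 and 1637 nucleotides).

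**Figure D3:**
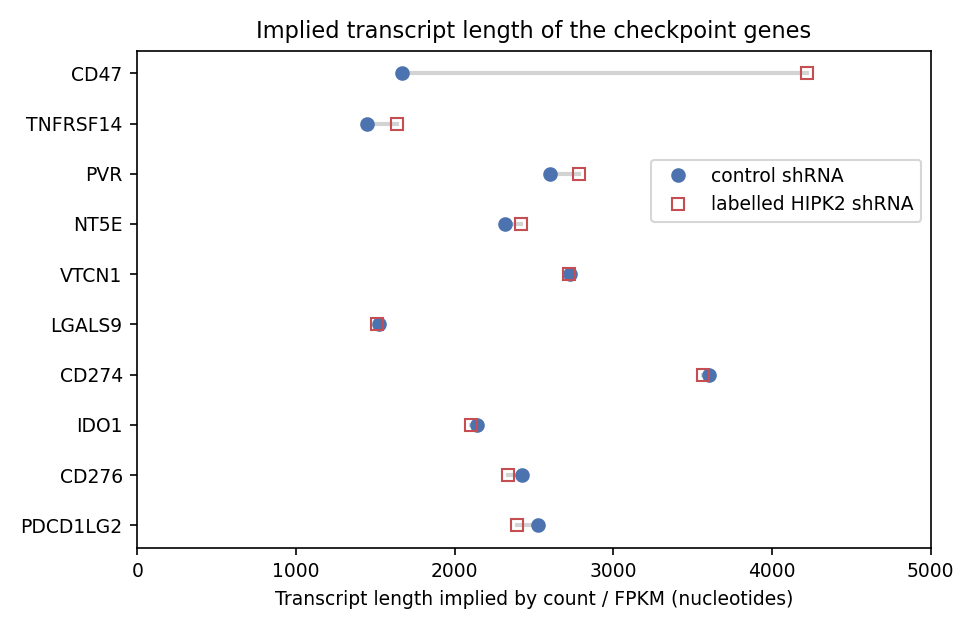
Transcript length in nucleotides implied by count over FPKM for each checkpoint gene in the control library (filled blue circles) and the library labelled HIPK2 shRNA (open red squares). For 9 genes the symbols lie close together, and for CD47 they lie at 1671 and 4220 nucleotides.

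The ligands of receptors on natural killer and T cells differed less. PVR (ENSG00000073008, chromosome 19, 44643798 to 44663583, plus strand) had 1368 and 1857 counts, which is 49.9 CPM (47.3 to 52.6) against 68.6 CPM (65.5 to 71.8). It was 1.38 times higher (1.28 to 1.48) in counts, and higher in TPM too (26.7 and 36.9), with intervals that do not overlap and a size short of 2-fold. TNFRSF14 (ENSG00000157873, chromosome 1, 2555639 to 2565382, plus strand) had 288 and 189 counts and was 1.503-fold lower (1.25 to 1.82), at 10.5 CPM (9.32 to 11.8) and 6.98 CPM (6.02 to 8.05). An antisense gene shares 13.4% of its exon bases. CEACAM19, with 98 and 75 counts, shares 3.44% of those of PVR.

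LGALS9 (ENSG00000168961, chromosome 17, 27629798 to 27649560, plus strand) had 332 and 422 counts, which is 12.1 CPM (10.8 to 13.5) against 15.6 CPM (14.1 to 17.2). It was 1.29 times higher (1.11 to 1.49). This value is uncertain, because the near-identical copies LGALS9B and LGALS9C on the same chromosome can exchange reads with it. LGALS9B had 227 and 151 counts (ratio 0.674) and LGALS9C 95 and 72 (ratio 0.768, 0.558 to 1.05), an interval that includes 1. Summed over the 3 genes there were 654 and 645 counts, a CPM ratio of 0.9998 (0.895 to 1.12), so a difference of the summed family was not detectable beyond counting error. The sum was chosen after the values were seen.

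The order of the genes by level per length changed at the top. In the control the TPM order was CD47 at 100.5, CD276 at 41.1, NT5E at 38.3, PVR at 26.7, LGALS9 at 11.1, TNFRSF14 at 10.1, CD274 at 3.46 and IDO1 at 1.14. In the library labelled HIPK2 shRNA it was CD276 at 165.4, PVR at 36.9, CD47 at 25.2, NT5E at 16.0, LGALS9 at 15.4, TNFRSF14 at 6.39, CD274 at 1.35 and IDO1 at 0.316. Neighbours whose counting intervals overlapped were CD276 with NT5E (39.3 to 43.0 and 36.5 to 40.1) and LGALS9 with TNFRSF14 in the control, and NT5E with LGALS9 in the other library. Among all expressed genes CD276 stood at percentile 77.6 of TPM in the control and at 92.7 in the second library. CD47 stood at percentile 88.5 and 69.7, and CD274 at 33.2 and 14.6. The place of CD47 depends on the scale, because its implied length differed between the libraries. In CPM it was not below PVR in the library labelled HIPK2 shRNA. There CD47 was at 71.1 CPM (68.0 to 74.4) and PVR at 68.6 CPM (65.5 to 71.8), with overlapping intervals.

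The pathway genes around these members were described from 12 lists, which together held 112 other expressed genes. Past 2-fold there were 9 higher and 3 lower genes, 8.04% and 2.68%, beside 3.26% and 2.87% of all expressed genes. The lists were chosen with earlier results of these data known, so the larger share of higher genes cannot be read as a result. The 9 higher genes were ICOSLG, NECTIN1, CEACAM1, CD70, TNFSF9, ADA, AHR, LRP1 and JAK1, and the 3 lower genes were ENTPD3, IL4I1 and FOSL1. The median log2 ratio of the 112 was 0.05. In TPM 10 were past 2-fold higher and 1 lower.

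Co-stimulatory ligands stood among the higher genes. CD70, the ligand of CD27, had 236 and 658 counts and was 2.83 times higher (2.43 to 3.29). TNFSF9, the ligand of 4-1BB, had 998 and 2561 counts and was 2.60 times higher (2.42 to 2.80). ICOSLG, the B7 relative that binds ICOS, went from 180 to 463 counts, 2.61 times higher (2.19 to 3.12). Of 5 expressed TNF-superfamily ligands with CD40, 2 were past 2-fold higher and 0 lower (median 0.64), with CD40 at 0.24 and TNFSF18 at -0.20. The median is the value of TNFSF15, which had 18 and 43 counts and was at 0.12 in TPM. TNFSF15 reached 1 CPM in the library labelled HIPK2 shRNA alone (1.59 CPM against 0.656 in the control), so it could only count as higher. The list median was 0.22 with a pseudocount of 5 CPM, 0.27 with no filter and 1.36 with a filter at 10 CPM. Of 8 expressed B7 and butyrophilin relatives besides the members, 1 was past 2-fold higher and 0 lower (median 0.11). The butyrophilins BTN3A1 and BTN3A2 had log2 ratios of 0.59 and 0.52, and NCR3LG1 one of -0.22. NCR3LG1 (28 and 20 counts) reached 1 CPM in the control alone (1.02 against 0.739 CPM), so it could only count as lower. The T-cell co-stimulators CD80 and CD86 were at 0 counts in both libraries.

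In the nectin family that PVR belongs to, 5 of 7 genes were expressed, PVR among them, with a median log2 ratio of 0.41 and 1 past 2-fold higher. NECTIN3 had 26 and 28 counts, and its interval includes 1 (ratio 1.09, 0.617 to 1.94). It reached 1 CPM in the library labelled HIPK2 shRNA alone (1.03 against 0.948 CPM), so it could only count as higher. The list median was 0.13 with no filter and 0.29 with a pseudocount of 5 CPM. NECTIN1 went from 1431 to 2874 counts, 2.04 times higher (1.91 to 2.17), while NECTIN2, another ligand on the TIGIT axis, went from 3317 to 3583, 1.10 times (1.04 to 1.15). NECTIN4 was at 0.41 on the log2 scale. Of 7 expressed ligands listed outside the B7 family, most of them inhibitory, CEACAM1 was past 2-fold higher, from 30 to 101 counts, 3.41 times (2.25 to 5.32). In TPM CEACAM1 was at 0.424 and 1.63, a log2 ratio of (TPM + 1) of 0.88, short of 2-fold. The galectins LGALS1 and LGALS3 were lower, by 1.89-fold (1.80 to 1.996) and 1.40-fold (1.31 to 1.51), short of 2-fold. The adhesion ligand CD58, which is on the list but is not an inhibitory ligand, was at 0.31. Of 10 expressed NKG2D and killer-cell ligands 0 were past 2-fold in either direction (median 0.11), with RAET1E at -0.72, ULBP2 at -0.56, MICB at -0.36 and BAG6 at 0.29. RAET1E (58 and 24 counts) reached 1 CPM in the control alone (2.11 against 0.887 CPM), so it could only count as lower. The same holds for NCR3LG1, which is also on this list.

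On the adenosine axis the genes were mixed. Beside the lower NT5E, ADA, which converts adenosine to inosine, had 1082 and 2225 counts and was 2.08 times higher (1.94 to 2.24). ADK, which removes adenosine by phosphorylation, had 1240 and 1007 counts and was 1.21-fold lower (1.12 to 1.32), short of 2-fold. ENTPD3, an ecto-enzyme that removes phosphate from ATP, had 242 and 47 counts and was 5.08-fold lower (3.70 to 7.10). Its relative ENTPD2 had 53 and 118 counts, 2.26 times higher (1.62 to 3.18). On the (CPM + 1) scale ENTPD2 was short of 2-fold, at a log2 ratio of 0.87. Of 11 expressed genes of the axis, NT5E included, 1 was past 2-fold higher and 2 lower, with a median of -0.02.

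On the tryptophan axis IDO1 was at a low level, and IDO2 and TDO2, the other enzymes of that first step, were at 0 counts in both libraries. IL4I1, which also breaks down tryptophan, had 106 and 37 counts and was 2.83-fold lower (1.93 to 4.23), though just short of 2-fold in TPM (-0.95). AHR, the receptor that binds kynurenine, had 338 and 759 counts and was 2.28 times higher, while its targets went both ways. CYP1B1 had 32 and 76 counts, 2.41 times higher (1.57 to 3.76), and AHRR 42 and 71. CYP1A1 had 106 and 51 counts, 2.05-fold lower (1.45 to 2.92), and TIPARP 881 and 666. Each of these 4 targets was short of 2-fold on the (CPM + 1) scale. Of 16 expressed genes, IDO1 included, 1 was past 2-fold higher and 1 lower, with a median of 0.10.

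The other genes listed with CD47 were mixed. LRP1, a receptor of phagocytosis and of thrombospondin, had 54 and 464 counts and was 8.71 times higher (6.56 to 11.8). It was the single gene past 2-fold in CPM of the 9 on that list, CD47 included. Its level per length was low, 0.243 and 1.80 TPM, and the log2 ratio of (TPM + 1) was 1.17, against 2.61 for (CPM + 1). THBS1, a ligand of CD47, was 1.75-fold lower (1.73 to 1.78). B2M, the light chain of MHC class I and not a partner of CD47, was 1.76-fold lower (1.70 to 1.82). QPCTL, the enzyme that modifies the start of CD47 for binding to SIRPA, was at 1.15 times (1.05 to 1.24).

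Genes that act on PD-L1 protein differed little. Of 20 expressed genes of its stability and glycosylation, 0 were past 2-fold in either direction (median -0.06), among them CMTM6, which protects PD-L1 from breakdown, at 1.14 times (1.01 to 1.28). The farthest were COPS5 at -0.63, MARCHF8 at 0.60, B3GNT3 at -0.58 and FBXO22 at -0.53. Of 15 expressed interferon-gamma signalling genes, 1 was past 2-fold higher and 0 lower (median 0.02). That gene was the kinase JAK1, with 411 and 1009 counts, 2.49 times higher (2.22 to 2.80), while IRF1 was at -0.05 on the log2 scale. The interferon targets GBP2 and SOCS3 were at 0.98 and -0.55, and SOCS1, a feedback inhibitor, at -0.48. Of 15 transcriptional inducers of PD-L1, the AP-1 subunit FOSL1 was past 2-fold lower, by 2.12-fold (2.05 to 2.18), with NFE2L2 at -0.78, JUN at -0.58 and EGFR at 0.48. In TPM FOSL1 was at -0.96, short of 2-fold, while the coactivator WWTR1 was past it, at 1.196 against 0.24 in CPM, so this list had 1 higher and 0 lower on that scale. GBP2 was also past 2-fold in TPM, at 1.37.

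Receptors of these ligands were nearly absent from the libraries. Of 17 receptor genes, 12 were at 0 counts in both libraries, CTLA4 and TIGIT among them, and 1, SIRPA, was expressed, with 1065 and 1140 counts (ratio 1.09). PDCD1, the gene of PD-1, had 0 and 7 counts. At 0 counts a level of up to 0.109 CPM (control) or 0.111 CPM remains possible.

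**Figure D4:**
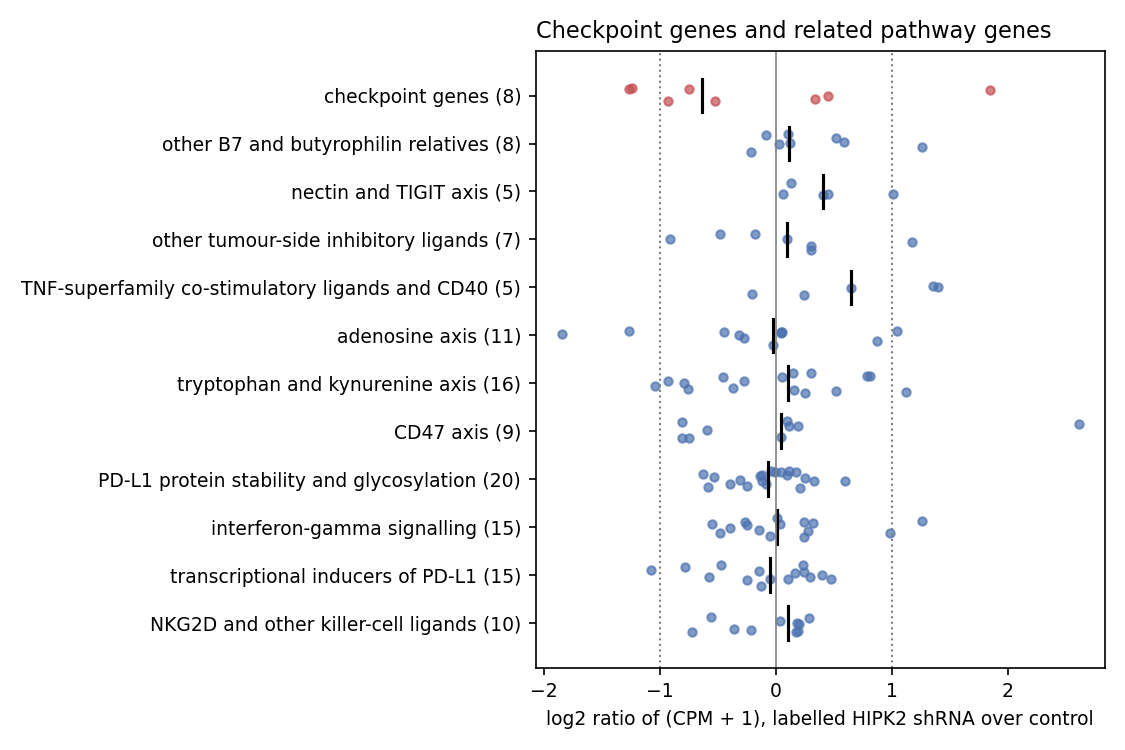
Log2 ratio of (CPM + 1), library labelled HIPK2 shRNA over control, for each expressed gene (points) of the checkpoint genes (red) and of 11 related lists (blue), with the number of genes in brackets, list medians as black bars and dotted lines at 2-fold. The checkpoint genes spread from -1.27 for NT5E to 1.84 for CD276, and LRP1 at 2.61 and ENTPD3 at -1.84 are the farthest points.

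Neighbouring genes were set beside the members by the positions in the files, within 500 kb between lower coordinates, whatever the strand. Around CD274, 4 neighbours were expressed and 1, PLGRKT, was past 2-fold. PLGRKT is a plasminogen receptor gene on the opposite strand (chromosome 9, 5357973 to 5437878, minus strand). Its 5′ end lies 12.6 kb before the start of CD274, so the genes point away from each other. PLGRKT was counted 322 and 104 times, 3.05-fold lower (2.44 to 3.85). RIC1, ERMP1 and KIAA2026, on the other side of CD274, were at log2 ratios of 0.45, 0.25 and 0.61. KIAA2026 (27 and 55 counts) reached 1 CPM in the library labelled HIPK2 shRNA alone (2.03 against 0.984 CPM). It could therefore only count as higher. Among neighbours under 1 CPM in both libraries, RLN2, nearer to CD274, had 17 and 0 counts. JAK2, 466.1 kb away between lower coordinates, had 0 and 22. Both were named after their values were seen. Around CD276 0 of 4 expressed neighbours were past 2-fold in either direction (median 0.03), around NT5E 0 of 2, around CD47 0 of 1 and around PVR 0 of 18.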

How the data were processed

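RNA-seq of 2 Cal-27 cultures, 1 library per group, was read from the deposited tables, grouped by the shRNA label. Libraries were paired-end, 150 bp, and aligned with TopHat2 2.1.1 after FastQC on GRCh38, per the submitters' processing notes and the labels' protocols; the counting tool, its annotation and its strand setting: not given in the sources used here. The deposited count per gene is a raw whole number. The authors' TPM has nearly the same total in both libraries, and the authors' FPKM is proportional to it; FPKM served only to derive implied length. Symbols turned into dates (27) were restored by gene ID.

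Counts were scaled with TMM factors of edgeR 4.0.16 (0.977 and 1.02). No edgeR or DESeq2 test was run, because single libraries leave no residual degrees of freedom. Log2 ratios use a pseudocount of 1 CPM or 1 TPM. Ratio intervals are 95% Clopper-Pearson, conditional on the summed counts, and level intervals exact Poisson (scipy 1.17.1); intervals on TPM scale that of the count. Without molecular identifiers, reads may be copies of 1 molecule, so intervals and limits cover counting error only. The rule of size and the intervals were tried on simulated counts with Poisson noise alone. That does not cover spread between cultures or copied reads. Named genes are the members, HIPK2, genes that copy or overlap a member, and neighbours past 2-fold. From each list they are among the 4 or fewer expressed genes farthest from a log2 ratio of 0. In the marker lists not all of these were named. KRT5, CSF1R, ADK, the AHR targets other than CYP1B1, TNFSF18, NECTIN3, WWTR1, IRF1 and CMTM6 were named after their values were seen. So were QPCTL, NECTIN2, the other CD274 neighbours and genes at 0. The members and lists were chosen with earlier results of these data known. DESeq2 1.42.0 size factors, other scalings, TPM, pseudocounts, filters and thresholds were tried as alternatives.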

Additional observations from a re-analysis of the deposited data

How the results depend on the processing

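No paired analysis was possible because a group is 1 library, which also means that leaving out a replicate was not an option. CD276 was the 1 gene past 2-fold higher under each scaling, unit, pseudocount and filter tried, and 0 genes were past 4-fold higher or lower. The count of 2 lower genes was 1 with a pseudocount of 5 CPM or a filter at 10 CPM, and 4 at 1.5-fold. The median log2 ratio of -0.64 was -0.34 with a pseudocount of 5 CPM, -0.42 with no filter and -0.0926 at 10 CPM, which leaves fewer genes. Of 60 ratios of the 10 checkpoint genes under other scalings, TPM and pseudocounts, 0 changed sign. CD274 was -0.76 with 5 CPM and -0.93 in TPM. CD47 was -1.95 and CD276 1.98 in TPM, and VTCN1 was -1.30 and IDO1 -1.77 with 0.1 CPM. The sum of LGALS9 with its copies, which is not among the 60, was at -0.00026, against 0.34 for LGALS9 alone. HIPK2, which is not among the 60, turned from 0.85 in CPM to -0.49 in TPM.

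Over all expressed genes the 385 higher and 339 lower were 676 and 515 with a pseudocount of 0.1 CPM, 124 and 161 with 5 CPM, 159 and 217 at 10 CPM, 1254 and 1176 at 1.5-fold and 62 and 48 at 4-fold. The 9 higher pathway genes were 4 with 5 CPM, 16 at 1.5-fold and 1 at 4-fold. The 3 lower ones were 1 in TPM, 1 at 10 CPM, 12 at 1.5-fold and 0 at 4-fold. Of 96 list medians under other settings, 21 shifted by more than 0.1. The cause was not tested. At this depth a single count equals 0.0365 CPM (control) or 0.0370 CPM, which limits PDCD1LG2, VTCN1 and IDO1.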
